A study of Mus musculus with 6 samples.

Results

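Oxidative phosphorylation was examined through 89 nuclear genes in laser-captured mesenchyme of the mouse incisor, a tooth that grows throughout life. The genes were taken from the 23718 listed genes by their symbols: protein-coding genes whose symbol begins with Nduf, Uqcr, Cox4 to Cox8 or Atp5, together with Sdha, Sdhb, Sdhc and Sdhd. In all, 92 listed genes carried such a symbol, and 3 processed pseudogenes among them (Ndufab1-ps, Uqcrh-ps1 and Uqcrh-ps2) were left out. Of the 89 genes, 36 encode subunits of complex I, 4 of complex II, 8 of complex III, 14 of complex IV and 15 of complex V. The other 12 genes encode 9 assembly factors of complex I and 3 related proteins (Ndufa4l2, Cox7a2l and Atp5s). Ndufa4 was counted with complex IV, where its protein resides.

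Mitochondria make ATP by passing electrons from NADH and succinate along a chain of membrane complexes to oxygen. Complexes I and II feed electrons to ubiquinone, complex III hands them to cytochrome c, and complex IV reduces oxygen. Complexes I, III and IV pump protons across the inner membrane, and complex V, the ATP synthase, lets them flow back to make ATP. A few subunits of the chain are read from mitochondrial DNA, and all others are encoded in the nucleus and imported. Nuclear genes of the chain are expressed in every tissue, and a few complex IV subunits exist in forms that are preferred in lung, testis or muscle.

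Gli1-CreER;tdT mice gave the samples of mesenchymal stem cells (MSCs) and Axin2-CreER;tdT mice those of transit amplifying cells (TACs), all 1 month old. The labels give C57BL/6 as their strain, whereas the study's methods speak of mice of mixed background. In both genotypes a tamoxifen-activated Cre recombinase switched on a red fluorescent reporter, so each group also carried the reporter and the drug, and tissue was frozen 1 day after injection. Labelled regions were cut from sections of the proximal incisor and were not sorted cell by cell, and the Gli1 and Axin2 promoters define which cells were labelled. With 3 MSC and 3 TAC samples, the comparison asks which genes distinguish the stem cell region from the region of their dividing progeny.

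Libraries held 20203159 to 108156380 estimated reads. Values below are normalized signal, a read number scaled so that the third quartile of the genes was about equal in every library (15.6), and the values of a group are listed in the order of replicates 1, 2 and 3. Replicate 3 of both groups stood apart from replicates 1 and 2. Its mitochondrial ribosomal RNA share was 0.236% in MSCs and 0.112% in TACs, compared with 8.28% to 9.07% in the other 4 libraries. No read was found for 43.1% of listed genes in MSC replicate 3 and 28.3% in TAC replicate 3, against 6.89% to 8.36% elsewhere. Results are therefore also given within replicates 1 and 2 and within replicate 3. Nothing in the labels says how the replicates of a group relate, so p-values measure only the spread between these samples. In bulk tissue, fewer cells of a type and less RNA per cell cannot be told apart.

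Nuclear oxidative phosphorylation genes had higher levels in TACs than in MSCs on the whole, but no single gene passed the adjusted threshold. Signal summed over them to 1153, 1126 and 1920 for the MSC libraries and to 1763, 1795 and 2723 for the TAC libraries. The groups overlapped, because replicate 3 was high in both. Within each number the TAC library was the higher one. As a share of estimated reads the genes took 0.197%, 0.192% and 0.482% in MSCs and 0.315%, 0.316% and 0.664% in TACs, again with MSC replicate 3 above 2 of the TAC libraries, and these shares rest on 38765 to 718030 reads.

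The 88 genes with a mean signal of at least 1 were tested with all others in limma, and only Cox7a1 stayed below. A median log2 fold change (TAC minus MSC) of 0.60 was found for the 88 genes, beside 0.03 for all 15391 genes tested and 0.05 for the protein-coding ones. The fold change was above 0 for 82 of 88 genes (93.2%), against 51.5% of all genes. None of the 88 passed a Benjamini-Hochberg adjusted p of 0.05 in limma, a threshold that 0.422% of all genes passed. Limma's voom on estimated reads also called none, with 12 higher in TACs at an unadjusted p under 0.05 (8.44% of all genes) and none higher in MSCs (6.61% of all genes). At an unadjusted p under 0.05, 10 of 88 (11.4%) were higher in TACs, where 5.42% of all genes were, and none were higher in MSCs, where 6.43% of all genes were. These 10 were Atp5b, Atp5a1, Cox7b, Sdhd, Uqcrfs1, Ndufa10, Atp5j, Uqcrq, Ndufb5 and Cox5b. Counted in either direction, the 10 (11.9% of all genes) became 31 without MSC replicate 3 (20.2% of all genes in that fit). That count was 6 without TAC replicate 1 (6.73% of all genes) or TAC replicate 2 (6.68%).

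All 3 TAC values lay above all 3 MSC values for 26 of the 88 genes (29.5%), compared with 12.3% of all genes. The opposite arrangement held for 1 gene, Cox4i2, compared with 12.2% of all genes. With MSC replicate 3 left out, which sets 2 MSC against 3 TAC libraries, separate groups held for 66 genes as higher in TACs (20.5% of all genes) and for 2 as higher in MSCs (29.4% of all genes). In same-numbered samples, TAC exceeded MSC in all 3 numbers for 57 genes (64.8%), against 24.6% of all genes. With the replicate number as a block, Atp5a1 and Atp5b passed the adjusted threshold in limma (0.604% of all genes passed as higher in TACs), and 22 genes were higher in TACs at an unadjusted p under 0.05 (9.43% of all genes). With the block and a correction for length and GC content, which could be fitted for 87 of the 88, none passed the adjusted threshold. In that fit 13 were higher in TACs at an unadjusted p under 0.05 (14.9%, against 8.21% of all genes) and 2 were higher in MSCs (2.30%, against 11.3% of all genes). The median for the 88 genes was lowest without TAC replicate 3 (0.34, with all genes at 0.14) and highest without MSC replicate 3 (0.80, with all genes at -0.13).

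**Figure D1:**
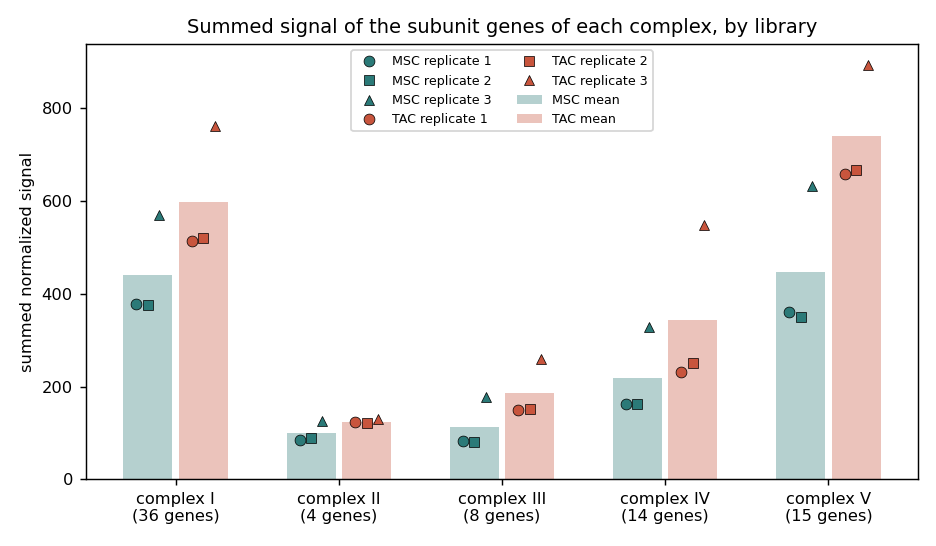
Summed normalized signal of the subunit genes of each complex, by library. Bars start at 0 and give the group means, and points are single libraries (circle, replicate 1; square, replicate 2; triangle, replicate 3). For complex V the MSC libraries sum to 361, 350 and 632 and the TAC libraries to 657, 667 and 894, and replicate 3 is the highest library of its group in every complex.

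Summed by complex, the TAC library was above the MSC library of the same number in all 5 complexes, as the plot of summed signal shows. For complex V the TAC libraries all lay above the MSC libraries. Complex I sums were 378, 376 and 569 in MSCs and 514, 520 and 762 in TACs, and here MSC replicate 3 exceeded TAC replicates 1 and 2. Complex II differed least in replicate 3, where its sum was 126 in MSCs and 129 in TACs.

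**Figure D2:**
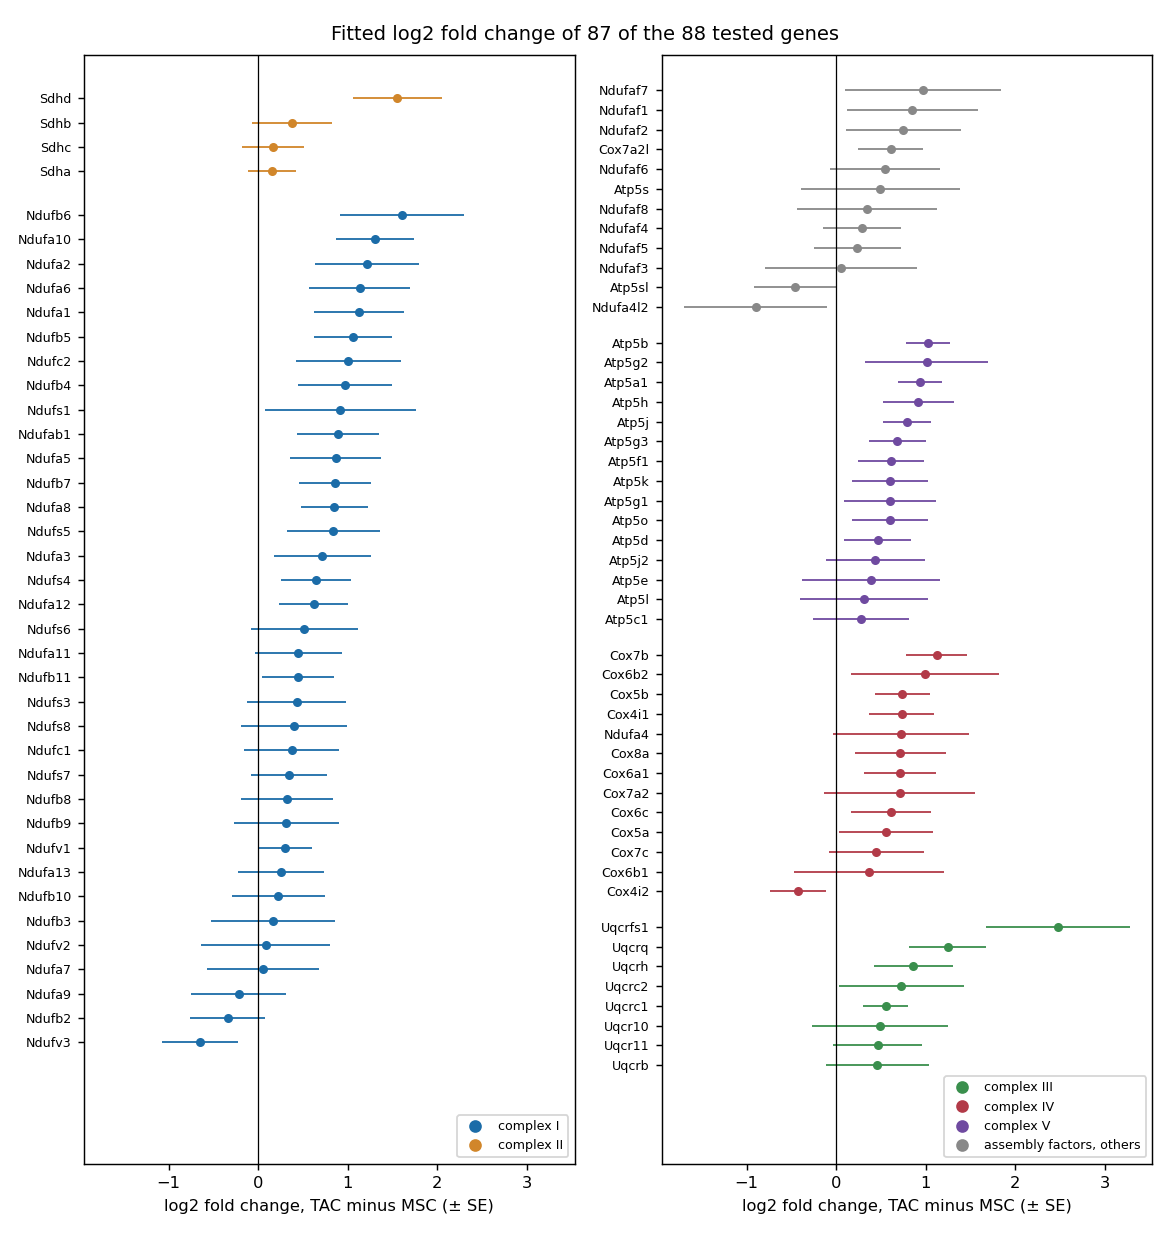
Log2 fold change (TAC minus MSC, x axis) of 87 of the 88 tested genes with its standard error from limma (bars), ordered within each complex. Points right of the line at 0 are higher in TACs. All genes of complexes II, III and V lie to the right, and Ndufv3, Ndufb2, Ndufa9, Cox4i2, Ndufa4l2 and Atp5sl lie to the left.

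Promoters of the subunit genes were searched for letters bound by factors known to act on nuclear mitochondrial genes. RefSeq promoter windows (GRCm38.p6, from 250 bases before to 50 after a transcription start) were found for 65 of 77 subunit genes. The nuclear respiratory factor 1 (NRF1) letters GCGCANGCG, sought on both strands, occurred for 20 of 65 subunit genes (30.8%), against 15.1% of 9985 tested protein-coding genes and 6.25% of all 32851 windows. CCGGAAG, bound by ETS factors such as the GA-binding protein, occurred for 16 (24.6%), against 19.7% of tested genes and 8.86% of windows. AAGATGGCG of YY1 occurred for 7 (10.8%), against 3.52% and 1.40%, and AAGGTCA of the estrogen-related receptors for 8 (12.3%), against 3.8% and 4.72%. GGGCGG of SP1 occurred for 26 (40.0%), against 69.4% and 35.7%. The TATA box TATAAA occurred for 5 (7.69%), against 8.43% and 13.6%. No one of these 6 letter strings contains another. Median log2 fold changes of subunit genes with and without the letters were 0.65 and 0.58 for NRF1, 0.66 and 0.60 for ETS, 0.44 and 0.61 for YY1, 0.65 and 0.60 for the estrogen-related receptors, 0.76 and 0.48 for SP1 and 0.35 and 0.61 for the TATA box, none of them tested.

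The windows of the 4 subunit genes with the smallest unadjusted p that could be shown are printed 5′ to 3′ on the strand of the gene, to show which letters promoters of genes with higher levels in TACs held. Capitals mark matches to the strings above. Atp5b (chr10:128083057-128083356, plus strand) held SP1 letters on each strand, Sdhd (chr9:50603800-50604099, minus strand) held NRF1, ETS, SP1 and estrogen-related receptor letters in that order, and Cox7b (chrX:106015450-106015749, plus strand) and Uqcrfs1 (chr13:30545267-30545566, minus strand) held none. A match is a string of letters and was not tested for binding.
Atp5b: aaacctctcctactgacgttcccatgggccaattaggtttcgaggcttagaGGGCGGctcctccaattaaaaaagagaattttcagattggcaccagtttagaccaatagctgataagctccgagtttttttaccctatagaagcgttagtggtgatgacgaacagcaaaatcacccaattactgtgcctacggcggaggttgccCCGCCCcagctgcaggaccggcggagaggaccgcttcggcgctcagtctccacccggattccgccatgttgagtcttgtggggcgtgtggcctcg
Sdhd: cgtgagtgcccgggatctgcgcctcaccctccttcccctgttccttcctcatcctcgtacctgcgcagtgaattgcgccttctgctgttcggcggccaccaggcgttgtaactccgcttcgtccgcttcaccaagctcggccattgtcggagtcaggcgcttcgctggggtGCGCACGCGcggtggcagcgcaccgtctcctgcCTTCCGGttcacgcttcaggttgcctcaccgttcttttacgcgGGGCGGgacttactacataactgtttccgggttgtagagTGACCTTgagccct
Cox7b: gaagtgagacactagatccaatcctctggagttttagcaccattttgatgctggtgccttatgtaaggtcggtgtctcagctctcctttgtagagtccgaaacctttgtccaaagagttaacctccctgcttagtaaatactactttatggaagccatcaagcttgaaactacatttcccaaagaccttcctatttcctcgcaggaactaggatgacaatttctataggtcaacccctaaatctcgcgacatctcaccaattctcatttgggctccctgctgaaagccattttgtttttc
Uqcrfs1: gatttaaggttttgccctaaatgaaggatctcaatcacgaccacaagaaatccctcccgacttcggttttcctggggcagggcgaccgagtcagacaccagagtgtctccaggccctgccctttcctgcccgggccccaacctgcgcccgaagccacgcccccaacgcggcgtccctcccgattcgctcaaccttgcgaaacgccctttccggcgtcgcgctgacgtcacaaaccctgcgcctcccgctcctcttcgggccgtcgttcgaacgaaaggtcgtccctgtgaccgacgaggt

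Complex I takes electrons from NADH. Of its 36 subunit genes, 33 had a fold change above 0, with a median of 0.49 on the log2 scale, and in 13 the TAC values all exceeded the MSC values (36.1%, against 12.3% of all genes). At an unadjusted p under 0.05, 2 were higher in TACs, Ndufa10 and Ndufb5, a share of 5.56% that was close to the 5.42% of all genes. The 7 core genes, which carry the cofactors and the ubiquinone site, were all above 0 with a median of 0.40, and the 29 accessory genes had a median of 0.65. Core and accessory medians were 0.46 and 0.53 within replicates 1 and 2, and 0.38 and 1.01 in replicate 3. The median for complex I was 0.52 within replicates 1 and 2 and 0.84 in replicate 3. It was lowest without TAC replicate 3 (0.24).

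Ndufs1 encodes the largest iron-sulfur subunit of complex I. It measured 27.5, 23.4 and 2.09 in MSCs and 28.9, 27.9 and 15.8 in TACs. Replicate 3 was the lowest library of each group, and MSC replicate 3 set the fold change, which was 0.92 ± 0.84 (SE) with all libraries and -0.11 without MSC replicate 3. Ndufv1, which binds NADH and the flavin that first receives its electrons, stood at 19.6, 14.7 and 16.9 in MSCs and 19.5, 19.9 and 24.3 in TACs. The groups overlapped by 1 library, MSC replicate 1, and the fold change was 0.30 ± 0.30 (SE).

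Among the accessory genes, Ndufb6 of the membrane arm had the highest fold change of the complex with all libraries and 1 added. It measured 2.25, 2.64 and 0.0133 in MSCs and 4.11, 4.82 and 10.4 in TACs, where the MSC replicate 3 value stands for 1 estimated read. The groups were separate, and the log2 fold change of 1.61 ± 0.69 (SE) was 1.02 without MSC replicate 3. That rank was lost within replicates 1 and 2 (0.67, with Ndufs4 at 0.96) and with 5 added (0.77, with Ndufa10 at 1.09). Ndufa10 measured 12.9, 18.8 and 8.15 in MSCs and 26.2, 25.7 and 51.5 in TACs. Every TAC library was above every MSC library, with a mean of 34.5 ± 14.7 (SD, n = 3) in TACs and 13.3 ± 5.32 (SD, n = 3) in MSCs. Its log2 fold change was 1.31 ± 0.43 (SE), with a limma Benjamini-Hochberg adjusted p of 0.297.

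Ndufv3 and Ndufb2 went the other way. Ndufv3, an accessory subunit beside the NADH site, measured 28.9, 26.0 and 17 in MSCs and 19.2, 18.8 and 8.35 in TACs. MSC was above TAC in every number, but MSC replicate 3 lay under TAC replicates 1 and 2. Its log2 fold change was -0.65 ± 0.42 (SE), or -0.29 without TAC replicate 3, and limma's adjusted p (Benjamini-Hochberg) was 0.612. Ndufb2 measured 10.5, 9.20 and 19.6 in MSCs and 11.4, 9 and 8.61 in TACs. Its groups overlapped, and the fold change of -0.34 came from replicate 3, since it was 0.04 within replicates 1 and 2.

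Complex II, succinate dehydrogenase, is also an enzyme of the citric acid cycle. All 4 genes had a fold change above 0 (median 0.27), but in replicate 3 the median was -0.10. All 4 passed the adjusted threshold in limma as higher in TACs within replicates 1 and 2, a fit that rests on pairs of nearly alike libraries and in which 20% of all genes passed in that direction. Sdha, the flavoprotein that oxidizes succinate, measured 47.0, 51.2 and 52.5 in MSCs and 66.2, 61.1 and 43.3 in TACs. TAC replicate 3 was the lowest of the 6 libraries, and the fold change of 0.15 ± 0.27 (SE) was 0.34 without TAC replicate 3 and 0.03 without TAC replicate 1. Sdhb, the iron-sulfur subunit, measured 15.8, 13.7 and 35.6 in MSCs and 21.2, 22.3 and 37.8 in TACs, with a fold change of 0.38 ± 0.45 (SE) that was 0.13 without MSC replicate 2 or TAC replicate 3 and 0.79 without MSC replicate 3. Its replicate 3 values were high in both groups, so the groups overlapped.

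Sdhd (chromosome 9, 50596357 to 50603812 on mm10), a membrane anchor of complex II, stood apart from the other 3 genes. It measured 4.32, 5.65 and 2.72 in MSCs and 10.7, 10.9 and 22.9 in TACs. The lowest TAC library was above the highest MSC library, and the ratio of the means was 3.51. The log2 fold change was 1.55 ± 0.50 (SE), 0.99 within replicates 1 and 2 and 2.68 in replicate 3, with a limma adjusted p (Benjamini-Hochberg) of 0.28.

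Complex III passes electrons from ubiquinol to cytochrome c. All 8 genes had a fold change above 0 (median 0.64; 51.5% of all genes were above 0), and 3 had separate groups (37.5%, against 12.3% of all genes). Within replicates 1 and 2 the median was 0.86 and all 8 passed the adjusted threshold as higher in TACs, as 20% of all genes did. In replicate 3 the median was 0.33, with Uqcr10 and Uqcrb below 0. Without MSC replicate 3 the median was 1.21, and without TAC replicate 3 it was 0.39.

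Uqcrfs1 (chromosome 13, 30540308 to 30545362), the Rieske iron-sulfur protein, had the highest fold change of the 88 genes with all libraries. It measured 5.52, 6.14 and 0.00666 in MSCs, the last value being no read, and 15.6, 16.7 and 26.7 in TACs. Every TAC library was above every MSC library, and the ratio of the means was 5.06. The log2 fold change of 2.48 ± 0.80 (SE), with a limma Benjamini-Hochberg adjusted p of 0.285, was 1.56 without MSC replicate 3. Atp5g2 was above it there, at 1.66, and with 5 added instead of 1 the Uqcrfs1 value was 1.53. Uqcrq, a small subunit near the ubiquinone site, measured 6.00, 5.77 and 5.41 in MSCs and 12.1, 11.7 and 23.3 in TACs. MSC libraries differed little, at 5.72 ± 0.294 (SD, n = 3), and all lay under the TAC libraries, at 15.7 ± 6.57 (SD, n = 3). Uqcrc1, a large subunit facing the matrix, measured 28.1, 26.8 and 30.5 in MSCs and 41.5, 46.1 and 39.2 in TACs. Its groups were separate too, with a fold change of 0.55 ± 0.25 (SE).

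Complex IV, cytochrome c oxidase, reduces oxygen. Of 13 tested genes, 12 had a fold change above 0, with a median of 0.72, and 4 (Cox4i1, Cox5b, Cox6a1 and Cox7b) had all TAC values above all MSC values, or 30.8% against 12.3% of all genes. The median was 0.56 within replicates 1 and 2 and 0.78 in replicate 3. It was 0.22 without TAC replicate 3.

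Cox7b (chromosome X, 106015700 to 106022450), a small membrane subunit, had the smallest unadjusted p of complex IV. It measured 10.5, 9.19 and 10.1 in MSCs and 17.1, 24.1 and 28.6 in TACs, with no overlap. The means were 9.93 ± 0.674 (SD, n = 3) and 23.3 ± 5.79 (SD, n = 3). Its log2 fold change was 1.12 ± 0.34 (SE), with a limma adjusted p (Benjamini-Hochberg) of 0.255. Cox5b, which faces the matrix and was named after its value was seen, ranged from 16.9 to 23.7 in MSCs and from 29.9 to 45.0 in TACs. Cox5a, also on the matrix side, measured 8.39, 3.79 and 13.3 in MSCs and 10.9, 9.23 and 15.9 in TACs, and MSC replicate 3 put its groups into overlap.

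Cox6a1, Cox8a and Cox7a2 encode ubiquitous subunits that have a tissue-preferred counterpart, and none of them passed the adjusted threshold. Cox6a1 measured 8.66, 12.1 and 12.8 in MSCs and 15.9, 14.1 and 29.3 in TACs, with separate groups and a fold change of 0.72 ± 0.40 (SE), or 0.41 without TAC replicate 3. Cox8a measured 19.1, 18.7 and 46.0 in MSCs and 28.6, 34.0 and 78.8 in TACs. Cox7a2 measured 3.38, 5.24 and 26.5 in MSCs and 7.99, 8.99 and 35.7 in TACs. For Cox8a and Cox7a2 the groups overlapped through MSC replicate 3, and each TAC library exceeded the MSC library of its number. Without TAC replicate 3 their fold changes of 0.72 and 0.71 were 0.28 and 0.06, and without MSC replicate 3 they were 1.13 and 1.51. Cox6a2, Cox7b2, Cox8b and Cox8c, tissue-preferred forms of complex IV subunits, were not among the listed genes.

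Complex V makes ATP. All 15 genes had a fold change above 0 (median 0.61), and 5 (Atp5a1, Atp5b, Atp5g3, Atp5j and Atp5k) had separate groups, or 33.3% against 12.3% of all genes. Within replicates 1 and 2, 13 of the 15 passed the adjusted threshold as higher in TACs (20% of all genes), with a median of 0.79, and in replicate 3 the median was 0.48. By position in the enzyme, the medians were 0.46 for 5 genes of the catalytic F1 part, 0.68 for 3 genes of the rotating c ring, 0.70 for 4 stalk genes and 0.44 for 3 other membrane genes. Their order was not stable, at 0.83, 0.66, 0.85 and 0.46 within replicates 1 and 2 and 0.38, 0.73, 0.40 and 0.45 in replicate 3.

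The genes of the catalytic hexamer gave the 2 smallest unadjusted p-values of all 88 genes. Atp5b (chromosome 10, 128083273 to 128090391 on mm10), the beta subunit that holds the catalytic sites, measured 76.9, 68.6 and 86.2 in MSCs and 151, 156 and 166 in TACs. Every TAC library was well above every MSC library, at 158 ± 8.03 (SD, n = 3) against 77.2 ± 8.81 (SD, n = 3), a ratio of 2.04. Its log2 fold change was 1.02 ± 0.25 (SE), with limma's Benjamini-Hochberg adjusted p at 0.167. With the replicate block the limma adjusted p was 0.0489, with the block and the length and GC correction it was 0.0925, and over all alternatives the adjusted p of Atp5b ranged from 3.41e-06 to 0.637.

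Atp5a1, the alpha subunit, measured 90.0, 89.9 and 84.1 in MSCs and 175, 183 and 152 in TACs. The groups did not overlap, and the means of 88 ± 3.39 (SD, n = 3) and 170 ± 16.0 (SD, n = 3) gave a ratio of 1.93. The log2 fold change was 0.94 ± 0.25 (SE), with a limma Benjamini-Hochberg adjusted p of 0.188, or 0.0491 with the replicate block and 0.0946 with the block and the length and GC correction. Over all alternatives the adjusted p of Atp5a1 ranged from 1.24e-06 to 0.686. Both genes kept a fold change near 1 on the log2 scale in each set of libraries, with 1.07 and 0.94 for Atp5b and 0.99 and 0.85 for Atp5a1 in replicates 1 and 2 and in replicate 3.

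The other 3 F1 genes had overlapping groups, with fold changes of 0.27 ± 0.53 (SE) for Atp5c1, 0.46 ± 0.38 (SE) for Atp5d and 0.39 ± 0.77 (SE) for Atp5e. Atp5d was higher in TACs in each number, whereas Atp5c1 and Atp5e were lower in TACs in replicate 3. Atp5c1, the central shaft, measured 23.3, 22.0 and 87.3 in MSCs and 40.9, 38.6 and 51.6 in TACs, so that MSC replicate 3 was the highest library of all. Atp5g2, one of the 3 genes for the same c subunit, measured 10.1, 11.1 and 43.5 in MSCs and 23.7, 23.9 and 79.2 in TACs. TAC was higher in each number but the groups overlapped, and the fold change of 1.01 ± 0.69 (SE) was 0.45 without TAC replicate 3, 0.66 without MSC replicate 1 and 1.66 without MSC replicate 3. Atp5j, coupling factor 6 of the stalk, was named after its value was seen and ranged from 20.7 to 26.4 in MSCs and from 38.6 to 47.6 in TACs.

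Levels can be compared between genes only per kilobase of merged exons. On that scale the 5 highest mean levels in TACs were those of Cox8a (76.2), Atp5a1 (54.3), Atp5h (37.6), Atp5b (37.2) and Cox4i1 (34.4). These 5 genes were also highest over TAC replicates 1 and 2 alone, but in another order, with Atp5a1 (57.1) above Cox8a (50.6) and Atp5b (36.2) above Atp5h (31.4). The means thus rank neighbouring genes through TAC replicate 3, where Cox8a stood at 127 per kilobase, and such neighbours were not told apart. In MSCs the same genes stood at 45.1, 28.1, 20.5, 18.2 and 19.6 per kilobase. Merged exons hold every annotated transcript of a gene, which lowers the value of genes with many of them. The 88 of the 89 genes with an annotated length had a median of 1696.5 bases, against 4304 for all protein-coding genes.

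The 12 genes outside the complexes had a median fold change of 0.42, but 0.02 within replicates 1 and 2 and 0.59 in replicate 3. Of the 12, 10 were above 0 (51.5% of all genes were). None had an unadjusted p under 0.05 (5.42% of all genes as higher in TACs, 6.43% as higher in MSCs). None had separate groups (12.3% and 12.2% of all genes). For the 9 assembly factors of complex I the median was 0.34 overall but 0.08 within replicates 1 and 2. Ndufaf1, Ndufaf2, Ndufaf3 and Ndufaf7 had no read in MSC replicate 3. Cox7a2l, which helps complexes III and IV join, ranged from 21.9 to 40.3 in MSCs and from 35.2 to 65.7 in TACs, with a fold change of 0.61 ± 0.36 (SE). Atp5sl, an assembly factor of complex I, was higher in MSCs in every number, with a fold change of -0.46 ± 0.46 (SE).

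Cox4i2 and Ndufa4l2, both known for rising in low oxygen, have common counterparts in Cox4i1 and Ndufa4. None of the 4 genes passed the adjusted threshold, but the ratio of each pair within a library took values that did not overlap between MSCs and TACs. Cox4i1, the ubiquitous form of subunit 4, measured 26.3, 26.7 and 38 in MSCs and 38.4, 41.5 and 79.9 in TACs. Cox4i2 (chromosome 2, 152754173 to 152765037), the form preferred in lung, measured 19.1, 19.9 and 21.3 in MSCs and 11.9, 15.1 and 17.5 in TACs. Cox4i2 was the single gene of the 88 with every MSC library above every TAC library. Its log2 fold change was -0.43 ± 0.31 (SE) and that of Cox4i1 was 0.73 ± 0.36 (SE), and limma's Benjamini-Hochberg adjusted p was 0.659 and 0.493. The Cox4i1 value was 0.40 without TAC replicate 3. Within each library the log2 ratio of Cox4i2 to Cox4i1 averaged -0.55 ± 0.22 (SD, n = 3) in MSCs and -1.71 ± 0.38 (SD, n = 3) in TACs. The ratios did not overlap, and the two-sided exact permutation p was 0.1, the smallest that 3 against 3 samples allow (0.15 adjusted over 3 pairs by Benjamini-Hochberg).

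Ndufa4, a subunit of complex IV, measured 3.38, 3.8 and 12.7 in MSCs and 5.04, 6.43 and 28.0 in TACs. Ndufa4l2 (chromosome 10, 127514967 to 127517154), its paralog, measured 2.05, 0.956 and 7.18 in MSCs and 0.328, 0.216 and 3.69 in TACs. Replicate 3 was the highest library of each group for both genes, so that single levels overlapped, but the ratio within a library did not. The log2 ratio of Ndufa4l2 to Ndufa4 was -0.85 ± 0.40 (SD, n = 3) in MSCs and -2.47 ± 0.25 (SD, n = 3) in TACs, with an exact permutation p of 0.1 (two-sided, 0.15 adjusted over 3 pairs). The size of this difference depends on the value added to such low signal: it was -1.62 with 1 added, -1.94 with 0.5 and -0.87 with 5. As few as 8 estimated reads lay behind the lowest Ndufa4l2 value.

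Cox6b2, a form known from testis, gave no such order. It measured 5.94, 5.71 and 14.7 in MSCs and 9.63, 7.31 and 64.8 in TACs, where TAC replicate 3 stood far above the rest. Its fold change of 1.00 was 0.06 without TAC replicate 3. Cox6b1 measured 7.46, 4.90 and 53.0 in MSCs and 12.5, 13.6 and 28.2 in TACs, and its fold change of 0.37 was -0.25 without MSC replicate 2. The log2 ratio of Cox6b2 to Cox6b1 was -0.63 ± 1.03 (SD, n = 3) in MSCs and 0.00 ± 1.04 (SD, n = 3) in TACs, with an exact permutation p of 0.6. Cox7a1, the heart and muscle form, was at 0.377 or less in all 6 libraries and was not tested.

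**Figure D3:**
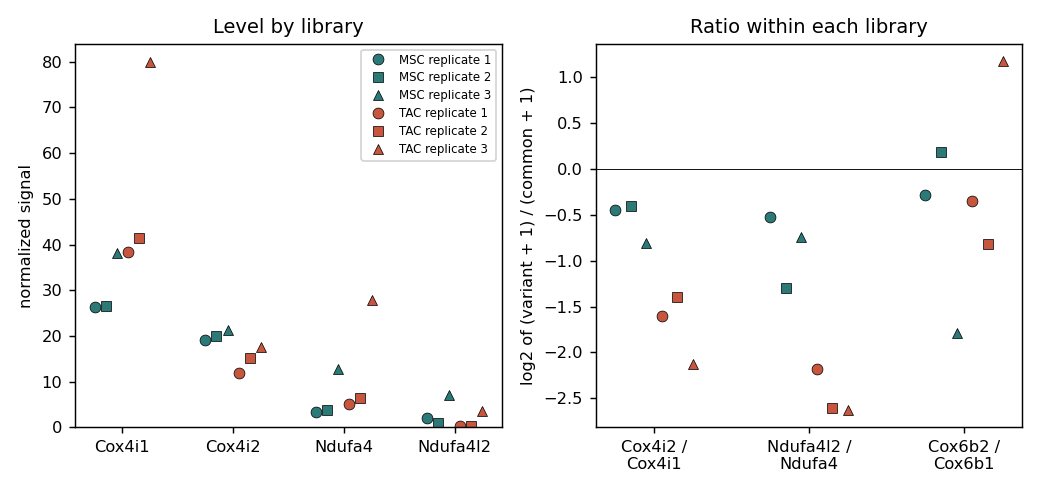
Left, normalized signal of Cox4i1, Cox4i2, Ndufa4 and Ndufa4l2 in each library. Right, log2 ratio of the variant to the common form within each library, each with 1 added (green, MSC; red, TAC; circle, square and triangle for replicates 1, 2 and 3). Ratios of the first pair run from -0.81 to -0.40 in MSCs and from -2.13 to -1.40 in TACs, and those of the pair with Cox6b2 overlap.

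Markers of smooth muscle and pericytes were examined beside these ratios. Of 12 tested, all were lower in TACs, 11 with separate groups and 5 past the limma Benjamini-Hochberg adjusted threshold (Myh11, Acta2, Tagln, Rgs5 and Notch3). With the replicate block 6 passed, Acta2 no longer among them. Summed signal of that list was 1062 to 1732 in MSCs and 192 to 243 in TACs. Rgs5, a pericyte gene, measured 276, 268 and 880 in MSCs and 40.3, 38.6 and 42.2 in TACs. Des and Higd1b were below the filter. Endothelial markers summed to 203 to 290 in MSCs and 115 to 122 in TACs. The part of these cells in the Cox4i2 and Ndufa4l2 values was not tested.

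The library sets differed in which genes were higher in TACs. Within replicates 1 and 2, 51 of the 88 genes passed the adjusted threshold as higher in TACs (20% of all genes) and 5 as higher in MSCs (24.2% of all genes). These 5 were Ndufv3, Cox4i2, Atp5s, Atp5sl and Ndufa4l2. That fit rests on the small spread between pairs of libraries that were nearly alike. In replicate 3, with 1 library a group and no test, 66 of the 88 were higher in TACs (52.3% of all genes). Genes that were higher in TACs in replicates 1 and 2 but not in replicate 3 included Ndufv2, which binds an iron-sulfur cluster, at 11.6, 10.6 and 71.2 in MSCs and 18.5, 18.4 and 32.2 in TACs.

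**Figure D4:**
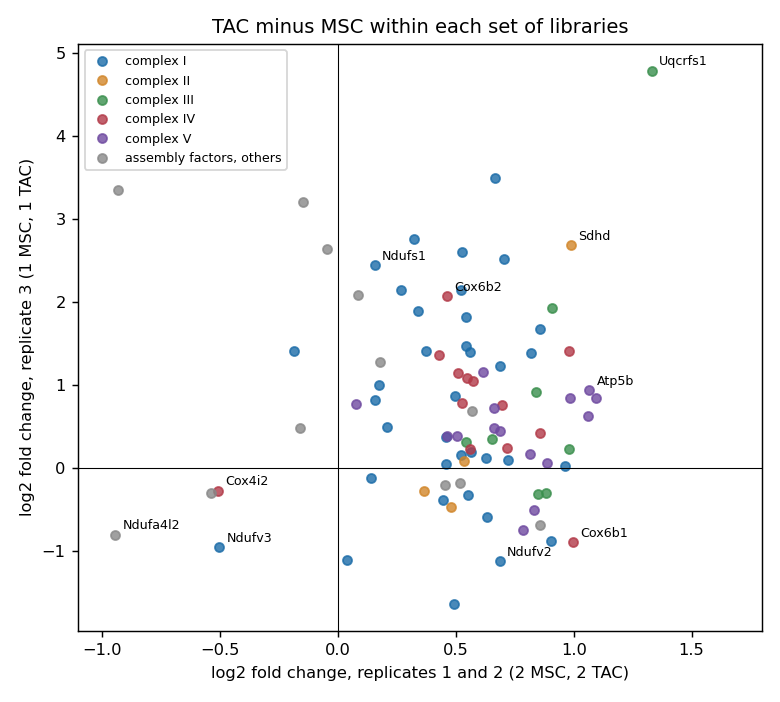
Log2 fold change of each of the 88 genes within replicates 1 and 2 (x axis, 2 MSC and 2 TAC libraries) and in replicate 3 (y axis, 1 library a group), colored by complex. Most points lie to the upper right, with 66 of 88 above 0 on the y axis, and Ndufv3, Cox4i2 and Ndufa4l2 lie below 0 on both axes.

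Other genes of the pathway were taken from fixed lists, and none passed the adjusted threshold in limma, while with the replicate block 1 did (Pgam1 of glycolysis). The 13 subunit genes of mitochondrial DNA were all above 0, with a median of 0.34 (0.28 within replicates 1 and 2 and 0.40 in replicate 3). They took 0.669% to 0.894% of estimated reads in replicates 1 and 2, but 4.05% in MSC replicate 3 and 5.49% in TAC replicate 3. Among them 1 had separate groups (7.69%, against 12.3% of all genes) and none had an unadjusted p under 0.05 (5.42% of all genes). In same-numbered samples TAC was above MSC in all 3 numbers for 11 of the 13 (84.6%, against 24.6% of all genes), and with the replicate block 7 were higher in TACs at an unadjusted p under 0.05 (9.43% of all genes). Their range ran from mt-Atp8 (0.04 ± 0.61, SE) to mt-Nd6 (0.64 ± 0.73, SE). The 78 mitochondrial ribosomal protein genes, nuclear genes for the translation of those subunits, had a median of 0.68 (0.56 within replicates 1 and 2 and 1.13 in replicate 3), with 71 above 0, 32 with separate groups as higher in TACs (41.0%, against 12.3% of all genes) and 8 at an unadjusted p under 0.05 (10.3%, against 5.42%). Assembly factors gave medians of 0.34 for 10 further genes of complex I, 0.50 for 4 of complex II, 0.68 for 7 of complex III and 0.19 for 22 of complex IV. Within replicates 1 and 2 these 4 medians were 0.19, 0.27, 0.46 and 0.22, and in replicate 3 they were 0.41, 1.12, 0.81 and -0.05, so that the complex IV list turned there. All 6 genes listed for complex V assembly and regulation were above 0, with a median of 0.70 (0.50 and 1.07 in those sets). Of them 4 had separate groups (12.3% of all genes). That list counts 1110008P14Rik, which is not a known complex V factor, so its values describe the list as fixed. Highest in these lists were Tmem186 (2.35), Sdhaf1 (1.37), Ttc19 (1.13), Coa3 (1.37) and Atpaf1 (1.57) for complexes I to V, and without MSC replicate 3 they stood at 1.43, 1.20, -0.23, 0.70 and 0.79. Lowest for complexes I to IV were Tmem261 (-0.33), Sdhaf4 (-0.04), Uqcc3 (-0.38) and Higd1a (-0.66). All but Higd1a (-0.07 without TAC replicate 3) changed sign with 1 library left out.

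Carriers that supply the complexes varied. Cycs, cytochrome c itself, had the highest value among 16 mobile carriers and feeders of the chain (median 0.19, or 0.20 within replicates 1 and 2 and 0.53 in replicate 3), at 6.76, 9.32 and 0.169 in MSCs and 15.6, 17 and 14.6 in TACs. Its groups were separate, with a log2 fold change of 1.88 ± 0.83 (SE) that was 0.90 without MSC replicate 3. Coq8a, needed for ubiquinone synthesis, was the lowest of that list at -0.55 ± 0.43 (SE). Slc25a5, which exchanges ADP for ATP across the inner membrane, measured 19.0, 19.6 and 27.1 in MSCs and 51.1, 50.8 and 40.4 in TACs. No TAC library reached down to the MSC range, and the log2 fold change was 1.09 ± 0.28 (SE), with a limma Benjamini-Hochberg adjusted p of 0.188. Its list of 7 transporters had a median of 0.61, or 0.68 within replicates 1 and 2 and 0.26 in replicate 3, and Vdac3 was its lowest (-0.06 ± 0.70, SE, but 0.78 without MSC replicate 3).

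The citric acid cycle list of 18 genes had a median of 0.43 with 14 above 0 and 7 with separate groups (38.9%, against 12.3% of all genes), from Sucla2 (-0.24 ± 0.33, SE) to Pdhx (1.44 ± 0.65, SE). Without MSC replicate 3 these were -0.04 and 0.89. The median of the cycle genes was 0.47 within replicates 1 and 2 and 0.21 in replicate 3. Glycolysis (19 genes, median 0.42) held genes on both sides, with a median of 0.11 within replicates 1 and 2 and 0.35 in replicate 3. Eno1, enolase, measured 148, 145 and 294 in MSCs and 97.5, 106 and 115 in TACs, and Pgk1, phosphoglycerate kinase, measured 9.14, 9.5 and 4.63 in MSCs and 20.9, 21.5 and 35.8 in TACs. Both had separate groups, in opposite directions, with log2 fold changes of -0.80 ± 0.35 (SE), or -0.47 without MSC replicate 3, and 1.64 ± 0.42 (SE). Pgam1, phosphoglycerate mutase, was named after its value was seen and measured 24.5, 24.5 and 48.7 in MSCs and 76.3, 66.8 and 129 in TACs, again with separate groups. Its log2 fold change was 1.47 ± 0.40 (SE), and the limma Benjamini-Hochberg adjusted p was 0.194, or 0.0442 with the replicate block, within a range of 2.69e-06 to 0.587 over all alternatives.

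Regulators of mitochondrial biogenesis showed no common direction. Of 17 tested, 10 were above 0 and the median was 0.31, or 0.07 within replicates 1 and 2 and 0.52 in replicate 3. Gabpb1, a partner of the ETS factor Gabpa, measured 8.66, 8.81 and 0.586 in MSCs and 14.8, 17.2 and 29.5 in TACs. It had the highest fold change of the list (1.95 ± 0.77, SE, and 1.08 without MSC replicate 3) and separate groups. Nrf1, whose letters were sought above, had a fold change of -0.21 ± 0.35 (SE), Gabpa of 0.34 ± 0.35 (SE), Gabpb2 of 0.20 ± 0.39 (SE) and Yy1 of 0.31 ± 0.31 (SE). Among the coactivators, Pprc1 had separate groups (39.5 to 48.7 in MSCs, 59.2 to 66.0 in TACs), while Ppargc1a stood at -0.08 ± 0.70 (SE) and Ppargc1b at 0.75 ± 1.11 (SE). The estrogen-related receptors Esrra and Esrrb had 0.51 ± 0.75 (SE) and -1.60 ± 0.80 (SE), and Esrrg stayed below the filter.

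Factors that read mitochondrial DNA were mixed as well. Tfam, which packs that DNA, was 10.6 to 10.8 in MSCs and 12.6 to 18.4 in TACs, and Polrmt, its RNA polymerase, was 10.4 to 20.1 and 20.2 to 21.0. Both had separate groups, with fold changes of 0.42 ± 0.34 (SE) and 0.46 ± 0.35 (SE). Tfb1m and Tfb2m had 0.96 ± 0.72 (SE) and -0.44 ± 0.74 (SE), and Mterf1a had -0.74 ± 0.77 (SE). Of the broader factors, Myc had -0.42 ± 0.47 (SE) and Nfe2l2 -0.47 ± 0.33 (SE).

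**Figure D5:**
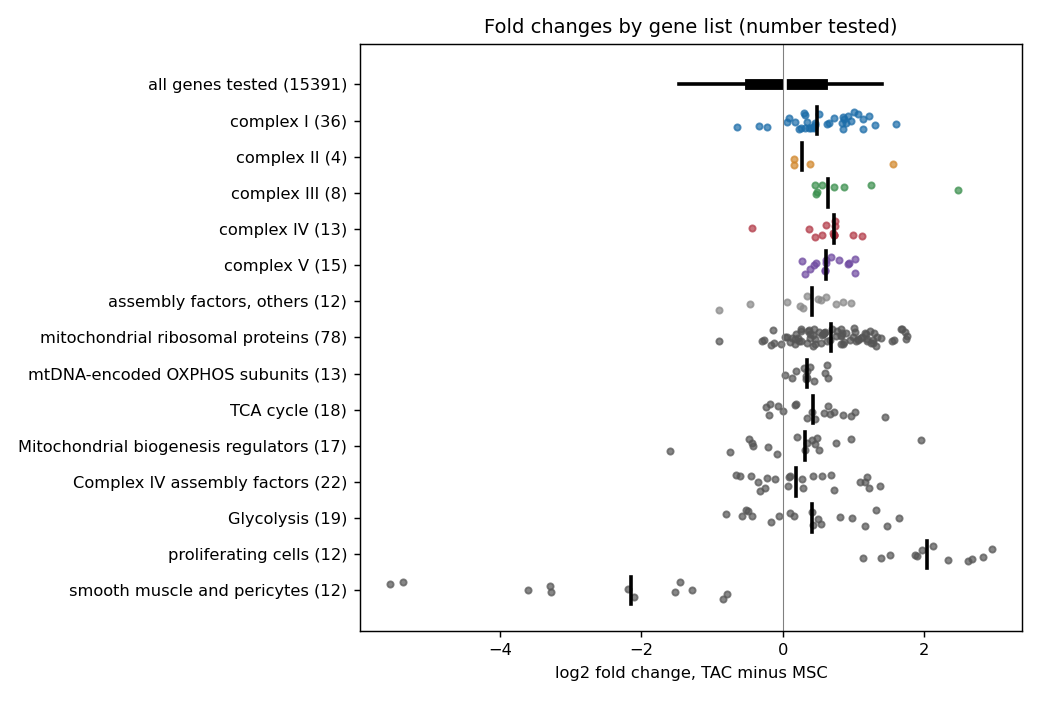
Log2 fold change (TAC minus MSC) of the genes of each list, with the number tested in brackets. Points are genes and black ticks medians, and for all genes tested the thick bar spans percentiles 25 to 75, the thin bar percentiles 5 to 95 and the white tick marks the median of 0.03. Medians of complexes III to V lie between 0.61 and 0.72, the proliferating cell markers near 2 and the smooth muscle and pericyte markers near -2.

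Markers of the captured tissue were examined beside these results. The 13 dental mesenchyme markers summed to 4116 to 12810 in MSCs and 10334 to 14114 in TACs. Their median fold change was -0.42 (-0.41 within replicates 1 and 2 and 0.13 in replicate 3), with 6 above 0 and 7 below. Proliferation markers were higher in TACs in all 12 genes tested (median 2.04), with sums of 162 to 267 in MSCs and 475 to 1205 in TACs, and Cdk1 passed the limma Benjamini-Hochberg adjusted threshold (0.039). Enamel epithelium markers were above 0 in 10 of 10 (median 1.01) and odontoblast markers in 4 of 5 (median 0.86). For the enamel list the median was 0.30 within replicates 1 and 2 but 3.11 in replicate 3, and for the odontoblast list -0.16 and 2.70. Medians were -0.62 for macrophages, -0.96 for Schwann cells and 0.11 for erythroid cells. Skeletal muscle and fat markers were nearly absent, with 2 and 1 genes above the filter and sums no higher than 15.4 and 6.32. Whether the higher levels of oxidative phosphorylation genes in TACs go with dividing cells or with any other cell type was not tested.

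Reads of some genes may be uncertain. Of the 89 genes, 38 overlap another annotated gene, Atp5j with Gabpa, Ndufs1 with Eef1b2 and Ndufa4l2 with Shmt2 among them, and the use of strand in counting is not given in the sources used here. Processed pseudogene copies, such as the 3 left out, can also share reads with their parent genes.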

How the data were processed

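Laser-captured MSC and TAC regions were sequenced, 3 samples each, and grouped by their labels. The authors trimmed the reads and aligned them to mm10 with TopHat2 2.0.8 (the submitters' processing notes also name CASAVA 1.8.2 and Partek). Although the study's methods name RPKM, the deposited values are a signal: a read number plus 1, divided by a factor per library and not by gene length. The lowest value of a library thus stands for no read, and estimated reads were the value over the lowest value, minus 1. Some low values were not whole, so no count model was used as the main test.

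Values were taken as log2(value + 1) and fitted in limma 3.58.1 (R 4.3.3) with an empirical Bayes variance trend, for genes whose mean over the 6 samples reached 1 (15391 genes). P-values were two-sided and adjusted by Benjamini-Hochberg over all genes tested. The added 1 makes changes of low genes look smaller than they are. The planned test had allowed for RPKM or counts and suits the unit found. Replicates 1 and 2 of a group differed by more than counting noise (mean chi-square over genes 10.3 in MSCs and 8.33 in TACs) and were kept as separate samples. Deviations of same-numbered MSC and TAC samples from their group means correlated at 0.477, 0.466 and 0.517 across genes, so the replicate number was also fitted as a block. MSC replicate 1 with TAC replicate 2 gave 0.462, and the shared deviation was that of replicate 3. The methods mention 3 mice per group and sample pairs but not what joins a pair. The pairing therefore rests on the label numbers, and this check sets only replicate 3 apart.

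The genes, lists, tests and alternatives were chosen with earlier results of these data known. Named were, in each complex, up to 2 of the highest fold changes above 0 and of the lowest below 0, core and catalytic genes, paired forms, extremes of each pathway list and all biogenesis regulators. The rule also covered extremes of marker lists, which are given here by counts, medians and sums. Others (such as Ndufv2, Atp5c1, Pgam1 and Cox7a2l) were named after their values were seen. There were 11 pathway lists and 11 marker lists, and mitochondrial ribosomal proteins for comparison. Alternatives were other pseudocounts, filters, scalings and variance models, a length and GC correction with lowess (span 0.3), libraries left out, and limma voom on estimated reads. The fits were run on simulated data without a shift between replicates, which cannot show how they handle libraries that differ as these do. Promoter windows came from RefSeq (GRCm38.p6) for 75 of the 89 genes, 72 under the same symbol. Of the tested genes, 1 is counted but not reported here by name.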

Additional observations from a re-analysis of the deposited data

How the results depend on the processing

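The direction of every complex median held under the planned pseudocounts, filters, scalings, variance models and left-out libraries. The exception was complex II in replicate 3 alone (-0.10). Of 15391 genes, 65 passed the adjusted threshold in limma. The count was 43 with a pseudocount of 0.5, 114 with quantile normalization, 29 without the variance trend, 229 with the replicate block, 14 with the block and a length and GC correction, 6796 in replicates 1 and 2 alone and 6 with voom. Leaving out 1 library gave 0 to 292. It was 0 without any one library of replicates 1 and 2, 292 without MSC replicate 3 and 36 without TAC replicate 3.

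Of the oxidative phosphorylation genes, none passed the adjusted threshold (0.422% of all genes). With the replicate block 2 did, both higher in TACs (0.604% of all genes in that direction). With the block and the length and GC correction 0 did (14 of 14942 genes). In replicates 1 and 2 alone 56 did, 51 as higher in TACs (20% of all genes) and 5 as higher in MSCs (24.2%). Leaving out 1 library gave 0 to 0. At an unadjusted p under 0.05, in either direction, there were 10 (11.9% of all genes), with 24 under the block (20.4%), 67 in replicates 1 and 2 (51.9%) and 6 to 31 with 1 library left out (6.68% to 20.2%). Groups did not overlap, in either direction, for 27 genes (24.5% of all genes), and for 78 in replicates 1 and 2 (72.9%) and 27 to 68 with 1 library left out (27.4% to 49.9%). The complex I median of 0.49 was 0.84 in replicate 3 alone. With 1 library left out, the medians ranged from 0.24 to 0.73 for complex I, 0.15 to 0.63 for II, 0.39 to 1.21 for III, 0.22 to 0.92 for IV and 0.44 to 0.91 for V.

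The Cox6b2 to Cox6b1 log2 ratio of 0.63 (TAC minus MSC) became -0.53 in replicates 1 and 2. With 1 library left out, Ndufs1 ranged from -0.11 (without MSC replicate 3) to 1.49 and Cox6b1 from -0.25 (without MSC replicate 2) to 1.35. Ndufb2 turned to 0.040 in replicates 1 and 2. The cause of these shifts was not tested. The block changed the call of Atp5a1, Atp5b, Pgam1 and Acta2 (limma adjusted p 0.0701, and 2.47e-07 to 0.291 over its alternatives) and of no other gene named here. The Ndufa4l2 to Ndufa4 difference of -1.62 was -0.87 with a pseudocount of 5. Leaving out a library moved the median of all genes to between -0.13 and 0.14 on the log2 scale, while under the other scalings it stayed within 0.1 of 0. With the block and the length and GC correction the median of the 88 genes was 0.41 and that of all genes -0.06. In MSC replicate 3, 7 of the 89 genes had no read, which allows up to 3 reads each by counting error alone.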
